A study of Canis lupus familiaris with 28 samples.

Results

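*EGR1* (Ensembl identifier ENSCAFG00000001254, NCBI gene 481528, a protein-coding gene) was described across every library of a study of canine histiocytic sarcoma (HS). It was found by its symbol, which the study's supplementary tables pair with 1 Ensembl identifier, and it is 1 gene of the 32704 identifiers counted. Names were known for 1126 of those identifiers, so most of the genes usually read beside *EGR1* could not be named. RefSeq places the gene on chromosome 11 of assembly UU_Cfam_GSD_1.0. The counts were made on CanFam3.1, and no position on that build was used here.

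*EGR1* encodes a zinc finger transcription factor of the immediate early class, whose transcription starts within minutes of a signal without new protein synthesis. The MAPK cascade drives it through ERK and the ternary complex factors that sit with SRF on serum response elements. In monocytes and macrophages EGR1 takes part in differentiation, and its output is held back by the corepressors NAB1 and NAB2, of which *NAB2* is itself a target.

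RNA was sequenced from 18 frozen HS tumors of Bernese Mountain Dogs (BMDs), of which 15 were labelled HS and 3 HHS, the hemophagocytic subtype. Histopathology put most of each tumor sample down as tumor tissue. Controls were 3 blood samples from BMDs and 1 sample each of lung, spleen and liver from German Shepherd Dogs (GSDs). Only the blood columns carried a different prefix in their names, which is read here as the flow cell. Tissue and flow cell for blood, and tissue and breed for the solid organs, therefore cannot be told apart from the difference between tumor and control. The cell lines BD and OD came from BMD tumors and PJ from a Rottweiler tumor. They were set against DC3F9, a dendritic cell strain grown from the blood monocytes of a mongrel dog with GM-CSF and IL-4, of which there was 1 library, labelled unstim. Each line is the culture of 1 dog, and nothing states repeat cultures. *EGR1* by the *PTPN11* status of the tumors was not analysed here.

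Libraries held 99701394 to 180801439 counted reads in tumors and controls and 82007857 to 131518875 in the cells. *EGR1* had 368 to 78997 reads, so counting error was small beside the differences between libraries. Of 276 pairs of tumor and control libraries, the closest (blood 1 and blood 3) still differed by a chi-square of 774 per degree of freedom, so no library was a repeat of another. The 8 named histiocyte markers (of 15 listed) summed to 5700 to 49100 CPM (counts-per-million of the counted reads) in the 17 tumors other than HS51, 16000 in HS51, 15500 to 19900 in blood and 837 to 2230 in the lines, with none at 0. Tumors and blood differed in the make-up of this sum. *LYZ* had a median of 1210 CPM in tumors and 8470 in blood, *CD63* 697 and 172, and *HLA-DRB1* 4290 and 2240. Against blood edgeR called 1 of the 8 as higher and 2 as lower, beside 16.3% and 9.09% of all genes. Tumor HS51 stood apart in its markers as well as in *EGR1*. The 3 named markers of red cell precursors and platelets (of 4 listed), *MPIG6B*, *TRIM58* and *TSPO2*, summed to 44.9 CPM there, against 0.179 to 2.41 in the other 17 tumors, 7.51 in the spleen control and 47.9 to 115 in blood. The make-up of this sum differed between HS51 and blood. *TSPO2* had 20.3 CPM in HS51 against 0 to 0.407 in blood, and *MPIG6B* 5.92 against 19.6 to 87.2. *TRIM58* had 18.7 CPM in HS51, within the 3.36 to 28 of blood. Values without HS51 stand beside the comparisons it enters.

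*EGR1* was low in blood, intermediate in most tumors and highest in HS51, the lung control and the cell lines. The 3 blood libraries held 2.72, 3.06 and 4.50 CPM. The Wilson 95% interval of the lowest ran from 2.46 to 3.01 and that of the highest from 4.17 to 4.86, which covers counting error only. The liver control held 7.89 CPM, the spleen control 74.65 and the lung control 389.4. In unscaled CPM the 3 solid organs thus spanned 49.3-fold, against 8.67-fold over the 17 tumors other than HS51. TMM scaling narrowed the span of the organs, since the liver control had a factor of 0.342. On that scale they ran from 23.05 (liver) to 300.2 CPM (lung), and the 17 tumors from 14.32 (HS33) to 129.3 CPM (HS39).

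Among the 15 HS tumors *EGR1* ran from 16.6 CPM in HS33 through a median of 51.9 to 522.9 in HS51. The next tumor below HS51 was HS39 with 143.9 CPM, followed by HS4 with 113.4, HS29 with 93.9, HS35 with 87.0, HS36 with 86.7 and HS50 with 72.3. HS51 was 3.63 times the next tumor. The lower part of the range held HS52 (51.9 CPM), HS37 (49.8), HS48 (42.5), HS47 (39.3), HS14 (27.4), HS34 (22.2), HS27 (20.5) and HS33. The 3 HHS tumors, HS46 with 54.8 CPM, HS41 with 54.4 and HS53 with 38.5, lay inside that range and close to its median.

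**Figure D1:**
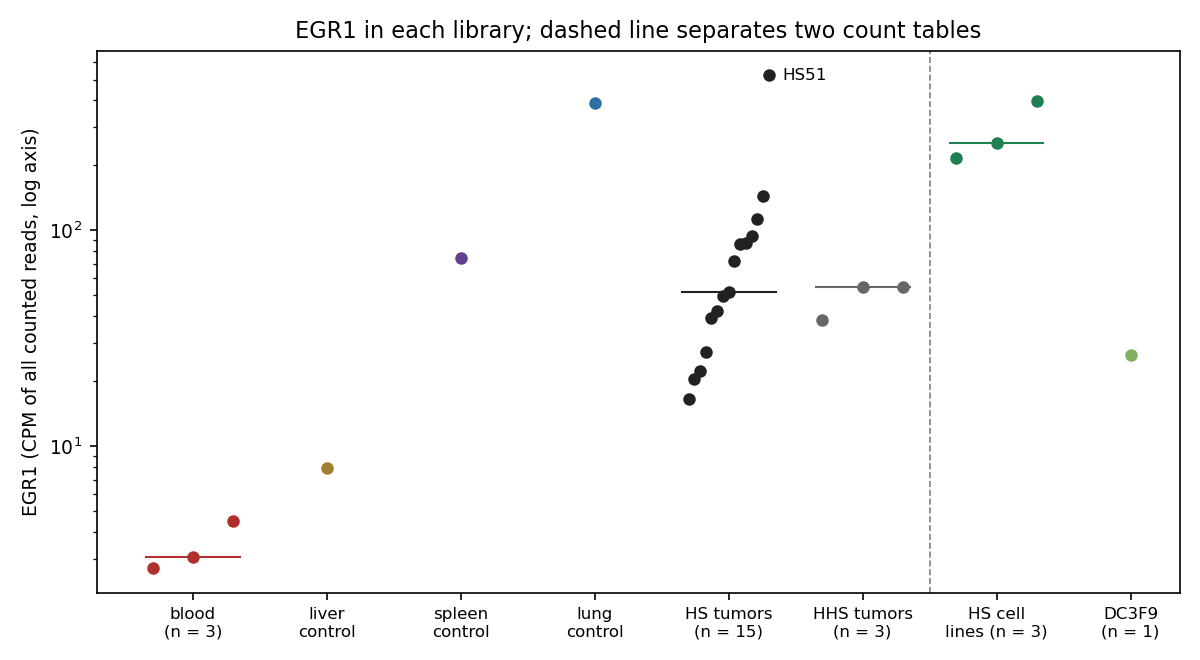
*EGR1* in CPM of all counted reads (log axis) in each of the 28 libraries. Points are libraries, ordered by level within a group, and horizontal lines are medians; the dashed line separates the tumors and controls from the cells, which were counted in another table. The blood points lie between 2.72 and 4.50 CPM, below every tumor, while the lung control at 389.4 lies above all tumors but HS51.

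The order of the medians was blood (3.06 CPM), the liver control (7.89), DC3F9 (26.55), lung tumors (40.9, n = 6), thorax tumors (49.8, n = 3), the lymph node tumor (54.4), liver tumors (63.5, n = 4), the spleen control (74.65), limb tumors (83.0, n = 2), the cell lines (253.6, n = 3), spleen tumors (308, n = 2) and the lung control (389.4). Neighbors from lung tumors to limb tumors overlapped in range and did not differ beyond their spread. Blood did not overlap with any tumor. The cells belong to another table and possibly another library kit, and their place in this order was not tested.

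Against blood, *EGR1* was higher in the tumors. All 18 tumors lay above all 3 blood libraries, and the lowest tumor was 3.69 times the highest blood sample. The median tumor was 17.3 times the median blood sample. Means were 5.80 ± 1.13 log2 CPM in tumors (SD, n = 18) and 1.70 ± 0.27 in blood (SD, n = 3). The log2FC was 4.62 (SE 0.96, 95% interval 2.63 to 6.62) with an adjusted p of 0.00097 in edgeR's quasi-likelihood test. This comparison called many genes, 16.3% of 20353 tested as higher, and 9.09% had every tumor above every blood sample. An exact permutation test of the mean log2 CPM gave p = 0.000752, the smallest that 18 against 3 allows, or 0.00602 after Benjamini-Hochberg adjustment over the 8 comparisons of *EGR1* (two-sided). The log2FC was 4.18 without HS51 (adjusted p = 8.55e-05 in edgeR). Markers of T and NK cells moved with this comparison. The 6 named (of 10 listed) summed to 519 to 970 CPM in blood, 1.92 to 217 in the 17 tumors other than HS51 and 41.1 in HS51. Called lower were 5 of the 6, beside 9.09% of all genes tested. Their median log2FC was -3.97, beside 0.44 over all genes. The part of T and NK cells in the *EGR1* difference was not tested. In bulk RNA, fewer cells that express a gene and less of its RNA per cell cannot be told apart.

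Against the solid organs run on the flow cell of the tumors, the place of *EGR1* depended on the organ. Of the 18 tumors, 6 lay above the spleen control, 1 (HS51) above the lung control and all 18 above the liver control (16 after TMM scaling). The log2FC against spleen and lung was -1.23 (SE 0.77, 95% interval -2.84 to 0.37, adjusted p = 0.345 in edgeR), where 6.99% of 21533 genes were called as lower and 1.78% as higher. It was -0.65 with the liver control added (adjusted p = 0.556) and -1.62 without HS51 (adjusted p = 0.0667). The exact permutation test gave p = 0.163 (0.326 adjusted over the 8 comparisons, 18 against 2). The lung control decided the sign. With lung left out the log2FC was 0.34 (adjusted p = 0.935 in edgeR), and with spleen left out it was -1.97 (adjusted p = 0.292). Both left a lone control that was assumed to vary like the tumors.

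Set beside the control of their own organ, lung tumors were low and liver and spleen tumors mostly high in *EGR1*. All 6 lung tumors, between 20.5 and 87.0 CPM, lay below the 389.4 CPM of the lung control. The mean of the tumors minus the control was -2.89 on the log2 scale (tumors 5.34 ± 0.51, SD, n = 6, and control 8.23). Both spleen tumors lay above the spleen control, HS29 at 93.9 and HS51 at 522.9 CPM against 74.65. Their mean was 1.77 log2 units higher, and HS29 alone stood at 6.84 against 5.98 log2 CPM. The 4 liver tumors (HS33 16.6, HS46 54.8, HS50 72.3 and HS36 86.7 CPM) all lay above the 7.89 CPM of the liver control. After TMM scaling, which raised the liver control to 23.05 CPM, 3 of the 4 lay above it and the mean difference fell from 2.63 to 1.06 on the log2 scale. The 8 named hepatocyte markers (of 9 listed) summed to 7620 CPM in the liver control and 5.43 to 376 in these 4 tumors. In tumors this sum was not particular to liver, since the lung tumors HS27 and HS52 had 1270 and 1250 CPM. *FBP1* had the highest medians of the 8, 191 CPM in liver and 505 in lung tumors, and *HSD17B6* the next (4.34 and 5.77). The histiocyte markers summed to 623 CPM in the liver control and 14500 to 20500 in the 4 liver tumors. The part of either marker set in the *EGR1* difference was not tested. Each organ had 1 control library from another breed, so these differences carry no replicate check on the control side.

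**Figure D2:**
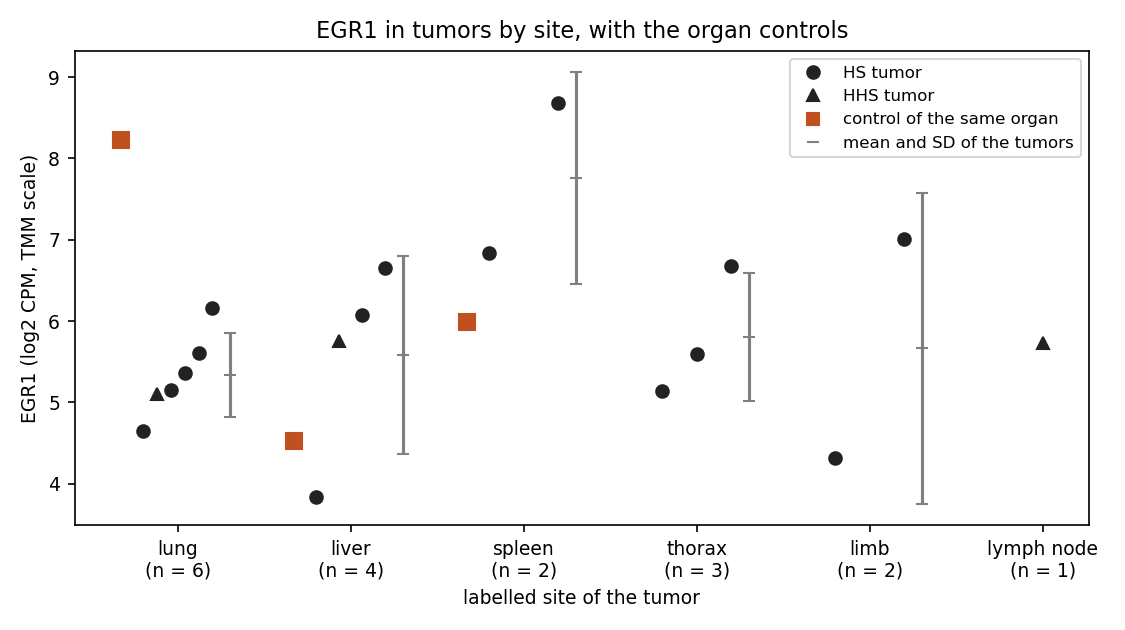
*EGR1* (log2 CPM, TMM scale) in the 18 tumors by their labelled site; circles are HS and triangles HHS tumors, grey bars are the mean and SD of sites with at least 2 tumors, and orange squares are the GSD control of that organ. The lung control at 8.23 stands above all 6 lung tumors, the spleen control at 5.98 below both spleen tumors, and the liver control at 4.53 within the liver tumors.

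Some markers of other cells were highest in the lung control. It had the highest sum of the 10 named endothelial and fibroblast markers (of 12 listed), 1270 CPM, against 45.1 to 901 in the 17 tumors other than HS51, 185 in HS51, 437 in the spleen control, 184 in the liver control and 11.3 to 24.3 in blood. Of the 10, *PTPRB*, *MYCT1*, *ANGPT1* and *NOTCH4* were highest in the lung control (329, 265, 162 and 125 CPM). *FLT4*, *CTHRC1*, *FBLN1*, *THBS2*, *COL14A1* and *LAMA2* were higher in a tumor or in the spleen control. *THBS2* had 9.99 CPM in the lung control and up to 337 in the tumors. None of the 10 was at 0 in a tumor or organ library, and *CTHRC1* was the lowest in HS51 at 0.0331 CPM. *AGER*, a marker of alveolar epithelium and the 1 named of 3 listed lung markers, had 1980 CPM in the lung control and 1.27 to 57.4 CPM in the 17 other tumors. The part of these cells in the *EGR1* level was not tested.

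Against the 5 controls the study used (3 blood, spleen and lung), *EGR1* showed no called difference in either direction. The log2FC was 0.07 (SE 0.81, 95% interval -1.59 to 1.73, adjusted p = 0.958 in edgeR), where 2.77% of 19430 genes were called and 1.91% were called as lower. The controls were no common level, with 2.72 to 4.50 CPM in blood and 389.4 in lung. Averaged on the log2 scale the tumors stood 1.93 above these controls (exact permutation p = 0.0324, 0.122 adjusted over the 8 comparisons), whereas the fitted value compares means of counts, in which the lung control weighs most. Without the lung control the log2FC rose to 2.13 (adjusted p = 0.0765 in edgeR, not past the threshold of 0.0005). Without HS51 it was -0.35 (adjusted p = 0.741).

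The 2 tumor types shared these controls. For the 15 HS tumors the log2FC was 0.15 (SE 0.87, adjusted p = 0.913 in edgeR; 17% of genes called), and 2.24 without the lung control (adjusted p = 0.0832). For the 3 HHS tumors it was -0.68 (SE 1.52, adjusted p = 0.831; 0.134% of genes called), and 1.39 without the lung control (adjusted p = 0.502). Exact permutation tests on log2 CPM gave p = 0.0459 for HS and 0.411 for HHS, or 0.122 and 0.548 after adjustment over the 8 comparisons.

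**Figure D3:**
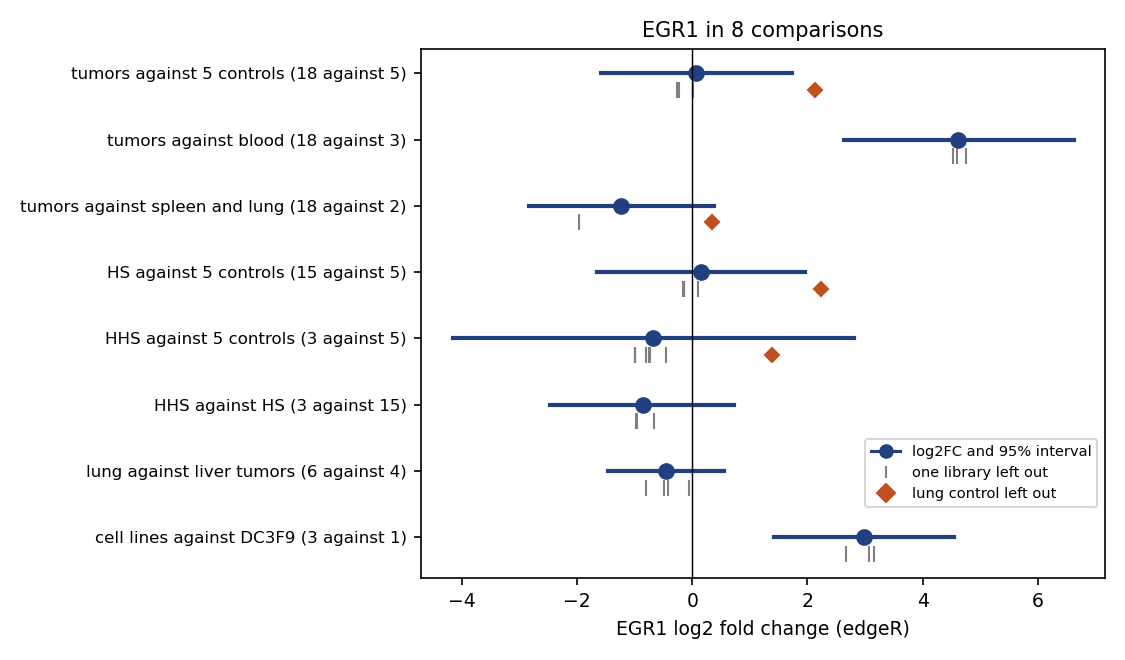
Log2 fold change of *EGR1* (edgeR) in the 8 comparisons, with 95% intervals in blue. Grey ticks give the value with 1 library left out and orange diamonds that without the lung control; the interval lies above 0 for tumors against blood and for cell lines against DC3F9, and the diamonds lie at 0.34 to 2.24, to the right of the values they belong to.

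The tumor types did not differ in *EGR1* beyond their spread. HHS tumors had a mean of 5.53 ± 0.37 log2 CPM (SD, n = 3) and HS tumors 5.85 ± 1.22 (SD, n = 15). The log2FC of HHS against HS was -0.86 (SE 0.76, 95% interval -2.46 to 0.73, adjusted p = 0.943 in edgeR), and -0.39 without HS51. edgeR called 0 of 19853 genes here (0%), with 797 at an unadjusted p under 0.05 and 1 called by DESeq2. Lung tumors had 5.34 ± 0.51 log2 CPM (SD, n = 6) and liver tumors 5.58 ± 1.22 (SD, n = 4). Their log2FC was -0.45 (SE 0.46, 95% interval -1.46 to 0.56, adjusted p = 1 in edgeR), where edgeR called 0 of 17671 genes (0%), with 907 at an unadjusted p under 0.05 and 99 called by DESeq2. Both intervals leave room for sizeable differences, so likeness is not shown.

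*EGR1* varied more among tumors than most genes did, and HS51 made part of that spread. Over the 18 tumors its SD was 1.14 log2 CPM, larger than that of 72.5% of 14402 genes (median SD 0.82). Without HS51 the SD was 0.90, larger than that of 57.3% of genes. The highest tumor had 31.5 times the CPM of the lowest, or 8.67 times without HS51.

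The HS cell lines held more *EGR1* than DC3F9. OD had 397.6 CPM, PJ 253.6 and BD 216.4, against 26.55 in DC3F9, or 15, 9.55 and 8.15 times as much. On the log2 scale the lines had 8.02 ± 0.48 (SD, n = 3) and DC3F9 5.06. The log2FC was 2.98 (SE 0.60, 95% interval 1.42 to 4.54), with p = 0.00475 before and 0.141 after adjustment in edgeR, so the difference did not pass the threshold. No gene passed it in edgeR (0 of 18121, 0%), while 2788 had an unadjusted p under 0.05 and DESeq2 called 1796. All 3 lines lay above DC3F9, as they did for 46.3% of genes tested. The exact permutation test could not go below 0.25 with 3 against 1 and gave 0.25. The single DC3F9 library was assumed to vary like the lines.

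In the comparison with blood, the named genes usually read with *EGR1* were called in both directions, as genes in general were. Of 43 listed partners and immediate early or ERK-responsive genes, 8 had a name in these data, which left out *FOS*, *JUN*, *EGR2*, *DUSP6* and most of the list. Against blood 1 of the 8 was higher (*NAB2*) and 2 were lower (*PIM1* and *MKL1*), with a median log2FC of -0.11 beside 0.44 over all genes (16.3% of which were called as higher and 9.09% as lower). Against spleen and lung edgeR called 0 of the 8 (median 1.01 beside 0.08 over all genes, of which 1.78% were called as higher and 6.99% as lower). *NAB2* and *TRIB1* had an unadjusted p of 0.0137 and 0.0234 in edgeR, and DESeq2 called both (adjusted p = 0.0309 and 0.0401). DESeq2 also called more genes in all, 3071 beside 1889 in edgeR. With the liver control added edgeR called *NAB2* (1.87, adjusted p = 0.0109) and *TNFAIP3* (1.56, adjusted p = 0.048), among 3450 genes called in all. In the cell lines edgeR called 0 of the 8 (median 0.06 beside 0.23 over all genes) and 0 of all 18121 genes. *MYC* and *PIM1* had an unadjusted p of 0.0119 and 0.0245 there.

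*NAB2*, the EGR corepressor, rose against blood. It ran from 38.9 through a median of 64.6 to 208 CPM in tumors, against 11.5, 8.90 and 20.3 CPM in the 3 blood samples, 31.4 in the spleen control, 30.8 in the lung control and 4.37 in the liver control. Every tumor exceeded every one of the 6 controls, and 1.16% of genes tested had all tumors above the 5 controls without liver. Its log2FC was 2.57 against blood (SE 0.51, adjusted p = 0.000671 in edgeR), 1.53 against spleen and lung (SE 0.57, adjusted p = 0.0989) and 2.07 against the 5 controls (SE 0.40, adjusted p = 0.000708, where the threshold was 0.0005). HS51, the tumor highest in *EGR1*, ranked 17 of 18 in *NAB2* with 43.9 CPM. In the lines it was 25.3 (BD), 24.9 (OD) and 34.3 CPM (PJ) against 31.6 in DC3F9, with a log2FC of -0.64 (SE 0.45, adjusted p = 0.541).

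*PDGFB* and *TNF*, which EGR1 is known to bind and induce, were the other named genes of a list of 10. *PDGFB*, a growth factor for mesenchymal cells, had 9.65 to 88.8 CPM in tumors (median 30.5) and 7.39, 9.92 and 13.9 in blood, a log2FC of 1.96 (SE 0.65, adjusted p = 0.0238 in edgeR). That call was lost without any 1 of the 3 blood samples (adjusted p = 0.066 to 0.118). The lung control had 105 CPM of *PDGFB*, above all tumors, and the log2FC against spleen and lung was -0.45 (SE 0.68, adjusted p = 0.731). *TNF*, an inflammatory cytokine, had 0.689 to 83.3 CPM in tumors (median 15.6) and 5.87 to 10.6 in blood, with a log2FC of 1.30 (SE 0.93, adjusted p = 0.282). In the lines *TNF* was at 82.2 (BD), 106 (OD) and 26.3 CPM (PJ) against 3.40 in DC3F9, a log2FC of 3.93 (SE 1.08, adjusted p = 0.221 in edgeR and 0.00199 in DESeq2).

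*PIM1*, a kinase gene induced by cytokine signals, was lower in every tumor (43.7 to 214 CPM) than in every blood sample (322 to 331 CPM), with a log2FC of -1.78 (SE 0.36, adjusted p = 0.000673 in edgeR). *MKL1*, a coactivator of SRF, was likewise lower in every tumor, at 14.2 to 70.5 CPM against 119 to 168 in blood (log2FC -2.17, SE 0.32, adjusted p = 3.3e-05). Of all genes tested, 7.45% had every tumor below every blood sample. *MYC* had 23.5 to 150 CPM in tumors and 76.7 to 126 in blood, with a log2FC of -0.45 (SE 0.36, adjusted p = 0.336). HS51 held the highest *MYC* (150 CPM), *TRIB1* (337 CPM) and *TNFAIP3* (157 CPM) of the 18 tumors. The log2FC against blood was 0.21 for *TRIB1*, a pseudokinase gene, 0.78 for *TNFAIP3*, an inhibitor of NF-kB signaling, 0.37 for *IER3* and -0.43 for *KLF10*, none of them called. In the lines *MYC* stood at 127 to 200 CPM against 34.0 in DC3F9 (log2FC 1.86, SE 0.47, adjusted p = 0.204 in edgeR and 0.0245 in DESeq2).

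**Figure D4:**
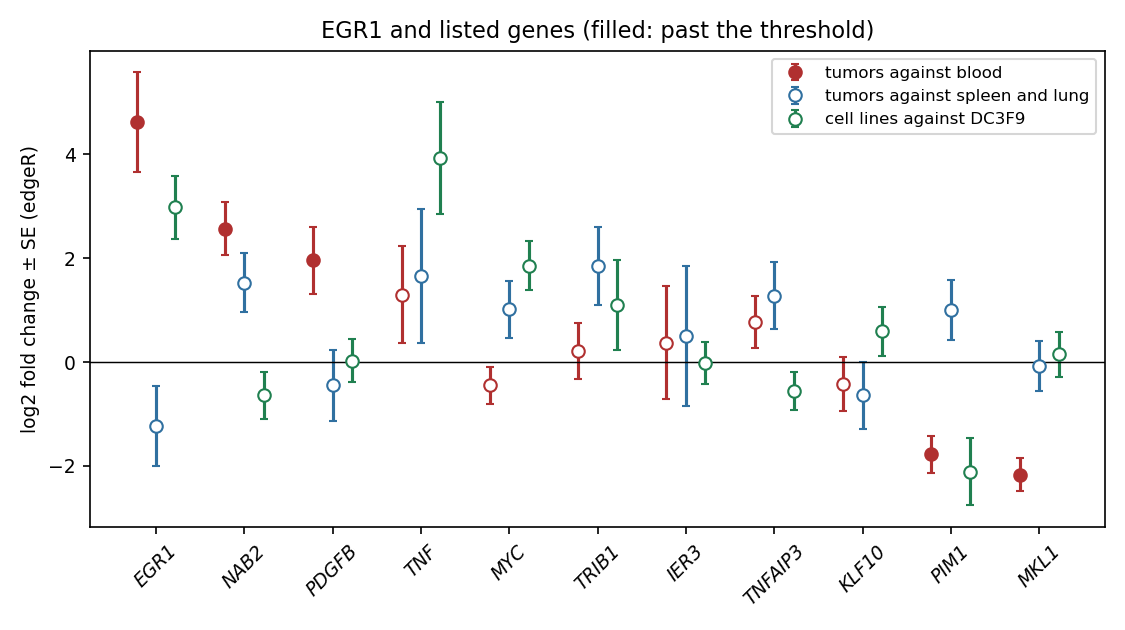
Log2 fold change ± SE (edgeR) of *EGR1* and 10 listed genes in tumors against blood (red), tumors against spleen and lung (blue) and cell lines against DC3F9 (green); filled points passed the threshold. *EGR1*, *NAB2* and *PDGFB* are filled above 0 and *PIM1* and *MKL1* below 0, in the comparison with blood alone.

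Of 28 listed genes of the RAS-ERK and stress kinase cascades, 15 had a name and 14 were tested, and those named are mostly of the p38 and JNK arms rather than of ERK. Their calls in tumors were all downward. Against blood 3 were lower: *MAPK14* and *MAPK13*, genes of p38 kinases (log2FC -2.33 and -2.51), and *CNKSR3*, a scaffold gene (-2.46), at adjusted p of 0.000154, 0.00203 and 0.000151 in edgeR. Of all genes, 9.09% were called as lower and 16.3% as higher against blood, and the list's median was -0.89 beside 0.44 over all genes. *CNKSR3* was also lower against spleen and lung (-1.79, where 6.99% of all genes were called as lower), a call lost with either control left out (adjusted p = 0.503 with lung and 0.124 with spleen left out, in edgeR). It was also lower against the 5 controls (-2.23), with an adjusted p of 0.000786 or 0.000926 and no call when blood 1 or blood 2 was left out. In the lines the list's median was -0.55 beside 0.23 over all genes.

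Of 9 listed stress-induced genes 7 had a name. Summed, they came to 497 to 1220 CPM in the 17 tumors other than HS51, 937 in HS51, 946 in the lung control, 590 in the spleen control, 323 in the liver control and 2060 to 5010 in blood. The highest medians in blood were those of *SOD2* (2610 CPM) and *SGK1* (792 CPM), so the blood sum speaks mainly for these genes. Against blood *SGK1* and *SOD2* were lower (log2FC -4.04 and -4.17, adjusted p = 1.24e-07 and 8.91e-09 in edgeR), and both identifiers named *HSPA1B*, near-identical copies that may share reads, were higher (2.55 and 4.24), beside 16.3% of all genes called as higher and 9.09% as lower. Across the 18 tumors the Spearman correlations of the tested members with *EGR1* ran from -0.13 (*HSPA1L*) to 0.34 (*SGK1*). Their part in the *EGR1* level was not tested.

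The genes beside *EGR1* on the chromosome were also called in both directions. RefSeq places *REEP2* next to it on one side and *ETF1* on the other. Against blood *REEP2* was lower (log2FC -4.15, SE 0.78, adjusted p = 0.000363 in edgeR) and *ETF1* was not called (1.08, SE 0.38, adjusted p = 0.034, under the fold required). Of the 13 listed neighbors 5 were higher and 2 lower against blood, beside 16.3% and 9.09% of all genes, with a median of 1.08 beside 0.44 over all genes. Across the tumors *ETF1* had a Spearman correlation of -0.21 with *EGR1* and *REEP2* one of 0.37, the latter at a very low level. Whether the counting used the strand is not given in the sources used here, so reads of overlapping transcripts cannot be told apart.

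Across the 18 tumors, 102 of 19852 genes followed *EGR1* with an adjusted p under 0.05 in edgeR (0.514%; 91 rising and 11 falling), and these calls rested on HS51. Without HS51 1 gene was called, none of the 102, and 988 had an unadjusted p under 0.05. With HS51 and HS33, the tumors farthest from the median, left out edgeR called 0, with 860 at an unadjusted p under 0.05. With the site of the tumor in the fit as lung, liver or other, edgeR called 0, with 1302 at an unadjusted p under 0.05. That fit pooled the spleen tumors, HS51 among them, with the thorax, limb and lymph node tumors. DESeq2 called 184 over all 18 tumors. Of the 102, 8 had a name, and HS51 held the highest level of each of the 8. Among them *TCF4*, a helix-loop-helix factor gene of plasmacytoid dendritic cells, rose by 0.56 log2 units per log2 unit of *EGR1* (SE 0.12, adjusted p = 0.0436), and by 0.36 without HS51 (adjusted p = 0.957).

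Among 626 named genes with a mean of at least 3 log2 CPM, the pattern most like that of *EGR1* was that of *CCHCR1* (Spearman's rho 0.72 over 18 tumors). Next came *TCF4* (0.60), *KIF5A* (0.58), *NFATC1* (0.55) and *SNAPC3* (0.55). Without HS51 and HS33 their rho was, in that order, 0.69, 0.49, 0.58, 0.38 and 0.41. Only *TCF4* of these had an adjusted p under 0.05 in the edgeR fit (0.0436), and the others had 0.193 to 0.647. Among the least alike were *TRAPPC9* (-0.59), *SAMM50* (-0.57), *ATP6V1C1* (-0.56) and *SNU13* (-0.54). Over all genes rho had a median of 0.02 and its middle 95% ran from -0.48 to 0.50. Pearson's r of *CCHCR1* was 0.60, and 0.70 without HS51 and HS33, while that of *TCF4* fell from 0.68 to 0.39. Of the named partners, *MKL1* (0.51), *IER3* (0.46), *TRIB1* (0.45) and *MYC* (0.37) had the higher rho, whereas *NAB2* had -0.33. Without HS51 and HS33 the rho was, in that order, 0.41, 0.41, 0.24, 0.36 and -0.19. None of them was called in the edgeR fit (adjusted p = 0.358 to 0.745). The correlations are descriptions over the same 18 libraries, whose total counts had a rho of 0.30 with *EGR1*.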

How the data were processed

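Per the labels and the study's methods, total RNA libraries (ribosomal and globin RNA depleted, stranded) were made from 18 tumors and 6 controls. For the cell lines the methods name an mRNA kit and the labels the total RNA kit. The authors deposited raw counts of reads per gene for 32704 identifiers, with no normalization, made with cutadapt 3.7 for trimming, STAR 2.7.10a on CanFam3.1 and HTSeq 2.0.0 for counting. Annotation release and strand option are not given in the sources used here. All columns were matched to samples (0 left over). The methods describe RNA extraction from each tumor and control sample; no repeat cultures of the cells are described, so p-values there measure the spread between lines.

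CPM were taken over all counted reads. Group tests used edgeR 4.0.16 (R 4.3.3, limma 3.58.1): filterByExpr, TMM factors, quasi-likelihood test, Benjamini-Hochberg adjustment. A call needed a log2FC beyond 1.5 in either direction, with an adjusted p under 0.0005 for tumors against 5 controls and 0.05 elsewhere. The 5 controls leave out liver, as in the study. Log2 CPM used TMM scaling and a prior count of 2. To find genes that follow *EGR1*, its log2 CPM was the covariate of an edgeR fit to the 18 tumors. DESeq2 1.42.0, other size factors, no filter, Benjamini-Yekutieli adjustment, other control sets and left-out libraries were the alternatives; the tests without HS51, the permutation tests and the test between organs were added after seeing the data. The steps were tested on simulated data. Figures and permutation tests used Python 3.11.15, numpy 2.4.6, pandas 2.3.3 and matplotlib 3.10.9.

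*EGR1* and the gene lists were chosen with earlier results of these data known. Other genes were named as members of those lists, or as the 5 highest and 5 lowest by Spearman's rho with *EGR1* among named genes with a mean of at least 3 log2 CPM. Of these, 1 gene is not reported here. Gene names came from the supplementary tables and RefSeq, and *AGER* and the other cell markers from marker lists fixed with the design.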

Additional observations from a re-analysis of the deposited data

Results flagged for a closer look

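Among the 5 controls, the *EGR1* level of the lung control, 389.4 CPM, stood far from the other 4, of which the next was the spleen control at 74.65 CPM. Chance alone marks about 1 of 20 groups by this measure only where the values follow a single normal distribution. The measure was taken on CPM, and the controls mix 3 tissues, so that rate cannot be applied to this flag. The measure was not taken on the log2 scale, where the lung control had 8.23 and the spleen control 5.98. Whether the lung control stands apart beyond the difference between tissues was not tested. No single tumor stood apart in this way among the 6 lung or the 4 liver tumors. For the group of 15 HS tumors, in which HS51 had 522.9 CPM and the next tumor 143.9, this measure was not taken.

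The difference between tumor and control of *EGR1* ran in opposite directions in different organs. All 6 lung tumors lay below the lung control, whereas all 4 liver tumors (in CPM) and both spleen tumors lay above theirs. In an edgeR fit over 15 libraries, made after these values were seen, the log2 difference in lung minus that in liver was -4.15 (SE 1.32, unadjusted p = 0.0077, adjusted p = 0.379). The difference in lung minus that in spleen was -4.84 (SE 1.39, unadjusted p = 0.00392, adjusted p = 1), and -3.66 without HS51 (SE 1.30, unadjusted p = 0.0156, adjusted p = 0.709). Neither passed the adjustment over 23190 genes, of which 0 passed it in either contrast with edgeR, and 1936 and 829 had an unadjusted p under 0.05. Each control was a single library assumed to vary like the tumors, and other tools were not run on this fit.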

How the results depend on the processing

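The call of *EGR1* against blood held under all 8 alternatives (log2FC 4.18 to 4.75). Against the 5 controls the log2FC was near 0 and changed sign with DESeq2 (-0.00044, adjusted p NA), with DESeq2 size factors (-0.00047) and without HS51 (-0.35), and ran from -0.27 to 2.13 with 1 control left out. For HS it ran likewise from -0.16 to 2.24 and was -0.32 without HS51. With 1 HHS tumor or control left out it ran for HHS from -0.99 to 1.39, against spleen and lung from -1.97 to 0.34 and for HHS against HS from -0.97 to -0.66 (-0.39 without HS51). With 1 liver tumor or 1 line left out it ran for lung against liver tumors from -0.80 to -0.06 and for cell lines from 2.66 to 3.16. The upper ends against the 5 controls (all tumors, HS and HHS) and against spleen and lung came from leaving out the lung control. DESeq2 called *EGR1* in the cell lines (2.95, adjusted p = 0.000521; 0.103 to 1 under the other alternatives); the cause was not tested. The liver difference was 2.63 without TMM factors. The 102 genes that followed *EGR1* became 0 with tumor site (lung, liver or other), 184 with DESeq2 and 493 without a filter. They became 29 with Benjamini-Yekutieli, 0 without the 2 farthest tumors and 1 without HS51.

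Among other genes, signs changed only for values that were not called. With the liver control added, *NAB2* and *TNFAIP3* were called against spleen and lung. Against the 5 controls *MYC* was 0.17 with liver added and -0.28 to 0.21 with 1 control left out. Against blood *IER3* ran from -0.15 to 1.10 and *TRIB1* from -0.10 to 0.38. Against spleen and lung *PDGFB* ran from -1.14 to 0.99, *MKL1* from -0.46 to 0.56 and *IER3* from -0.37 to 3.08, and with liver added *MKL1* was 0.33 and *PDGFB* 0.22. In the lines *PDGFB* was -0.01 with DESeq2 and with its size factors and -0.13 to 0.17 with 1 line left out, and *IER3* 0.01 without a filter and -0.08 to 0.07 with 1 line left out. *NAB2* against the 5 controls passed with DESeq2 (2), liver added (2.15) or HS51 left out (2.12).

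The number of genes called moved with the method. Against the 5 controls 539 became 1721 with DESeq2 and 130 with Benjamini-Yekutieli and 222 to 314 without 1 blood sample, against blood 5159 became 2655 with Benjamini-Yekutieli and 3286 without blood 1, and against spleen and lung 1889 became 3071 with DESeq2, 611 with Benjamini-Yekutieli, 3450 with liver added and 257 without the lung control. HS against 5 controls went from 3248 to 1236 with Benjamini-Yekutieli, and HHS against 5 controls from 25 to 2159 with DESeq2, 0 with Benjamini-Yekutieli and 0 to 104 with 1 library left out. Without a filter, 4 genes were called for HHS against HS and 28 in the lines. No paired analysis was possible because the labels give the groups no shared replicate numbers. DC3F9 and each organ had 1 library, and tissue, breed and flow cell differ between tumors and controls.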
